A study of Drosophila melanogaster with 12 samples.

Results

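The transcripts of whole female fruit flies were compared between 2 stages of metamorphosis. The groups set against each other were female pupae (2 arrays) and female larvae of the third instar (2 arrays), 4 of the 12 arrays in the series, chosen by the sex and stage in the sample labels and by no measured value. The other 8 arrays held male pupae, male larvae, female adults and male adults, with 2 arrays each. All animals came from LHm, an outbred stock of *Drosophila melanogaster* maintained at 25 °C, with no mutation, transgene or treatment named in the labels. An array carried RNA from a pool of 10 whole animals, and the design text calls the replicates biological. Vials had been started at staggered times so that every stage could be sampled together. The labels do not give the age of the pupae or of the larvae within their stage.

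Each Affymetrix Drosophila Genome 2.0 array gave 1 log2 expression value per probe set, a set of short probes for 1 transcript. In the comparison 18769 probe sets were tested, and 11982 genes were named, each by its brightest probe set, judged by the mean of all 12 arrays. Array means lay between 6.939 and 6.997. Array medians differed by sex, from 6.27 to 6.44 on female arrays and from 6.73 to 6.81 on male arrays. The 2 arrays of female pupae correlated at r = 0.9938 and those of female larvae at r = 0.9924 across probe sets. Values of about 3 to 6 lie near the background of these arrays, so a difference against such a level is compressed. Levels of different genes were not set against each other.

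Metamorphosis turns a feeding, crawling larva into a flying adult inside a closed case. Pulses of the steroid ecdysone end larval feeding, trigger the larval salivary glands to expel a protein glue that fixes the animal to its substrate, and start the breakdown of most larval tissues. Adult structures grow from imaginal discs and other reserve cells, secrete new cuticle, and build flight muscle, compound eyes and a rewired nervous system.

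A gene was called changed when limma, a linear model with a variance estimate shared across probe sets, gave a Benjamini-Hochberg adjusted p under 0.05 over all 18769 probe sets and the log2 difference was at least 1, which is 2-fold. All differences below are female pupae minus female larvae on the log2 scale, with the standard error (SE) after ±, and all adjusted p-values are from limma. By this rule 1686 genes (14.1%) were higher in female pupae and 1398 genes (11.7%) were lower. These percentages are the background for every list of genes below. The lists and their members were chosen with earlier results of these data known, so a share above the background is a description only. The falls were the larger changes: 276 genes were lower and 177 genes higher by at least 16-fold, and 35 were lower and 23 higher by at least 256-fold. The 2 arrays of one stage did not overlap those of the other for any called gene, and this was also so for 9005 of the 11982 genes (75.2%), called or not. The median difference over all genes was 0.037. Genes named below only to complete a small count within a list were picked after their values were seen. With the adjusted p alone, and no minimum fold, 3666 genes (30.6%) were higher and 2955 (24.7%) lower. Over probe sets, calls with the 2-fold minimum made up 11.0% higher and 8.53% lower, and without it 25.7% and 19.6%.

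**Figure D1:**
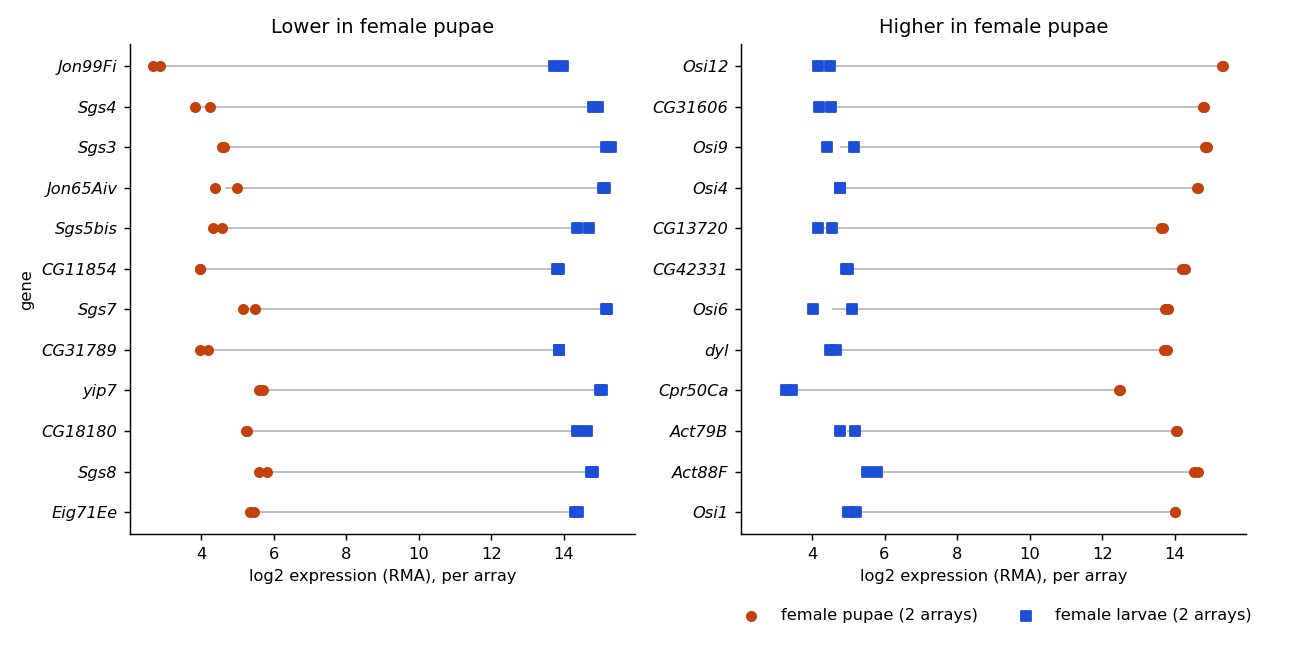
Log2 expression per array of the 12 genes with the largest falls (left) and the 12 with the largest rises (right) among called genes. Circles are the 2 arrays of female pupae, squares the 2 arrays of female larvae, and the grey line joins the group means. The groups lie apart for all 24 genes, which was a condition of their choice. The replicates of a stage mostly lie on top of each other.

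Genes of the salivary glue were lower in female pupae. Of 12 measured glue genes, 11 fell and none rose, with a median difference of -8.93. Sgs3, which encodes a main glue protein, had 4.59 and 4.64 in female pupae, against 15.31 and 15.15 in female larvae. Its difference was -10.61 ± 0.12 (adjusted p = 5.83e-12). Sgs4 had 4.25 and 3.83 in female pupae, against 14.93 and 14.81 in female larvae, a difference of -10.83 ± 0.24 (adjusted p = 1e-10). Both genes were therefore high on each larval array and low on each pupal one. Further glue genes fell in the same range, namely Sgs5bis (-10.07 ± 0.15), Sgs7 (-9.85 ± 0.27), Sgs8 (-9.07 ± 0.13) and Sgs5 (-8.93 ± 0.17). Eig71Ee, an ecdysone-induced gene of the same glands, had 5.35 and 5.46 in female pupae, against 14.38 and 14.31 in female larvae (-8.94 ± 0.13). Because whole animals were measured, fewer cells of a type and less RNA per cell cannot be told apart, here and in all results below.

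The Eig71E genes, a cluster that answers to ecdysone after the glue genes, were mixed, with 2 of 8 higher and 2 lower. Eig71Ee, which fell furthest of the Eig71E genes named, was not counted among these 8. Eig71Ej was higher in pupae by 3.82 ± 0.26 and Eig71Ek by 2.60 ± 0.25. Eig71Eg fell (-2.35 ± 0.21) and Eig71Ea (-1.16 ± 0.29). Without the second array of female larvae Eig71Ea gave -0.67 and was not called.

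Digestive enzymes fell together. Among 26 measured gut proteases 21 were lower in female pupae and 1 was higher, and the median difference was -7.24. The Jonah genes encode chymotrypsin-like proteases of the midgut. Jon99Fi had 2.68 and 2.87 in female pupae, against 13.99 and 13.73 in female larvae, and its difference of -11.08 ± 0.19 (adjusted p = 2.6e-11) was the largest fall of all called genes. Jon65Aiv had 4.39 and 4.98 in female pupae, against 15.14 and 15.09 in female larvae (-10.43 ± 0.23). The pupal arrays were low and the larval arrays near the top of the scale for both. The related proteases Jon25Biii (-8.69 ± 0.19), Jon65Ai (-8.45 ± 0.26) and Jon66Ci (-8.40 ± 0.22), the protease yip7 (-9.38 ± 0.20) and the trypsin epsilonTry (-8.21 ± 0.22) fell likewise. The higher gene was the trypsin gene lambdaTry (1.34 ± 0.23), and its call was lost without the second array of female larvae (0.98).

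Enzymes that split starch and sugars fell less far. Of 11 amylases and maltases 7 were lower and none higher, with a median of -1.78. The maltase Mal-A8 had 4.82 and 4.24 in female pupae, against 8.81 and 9.26 in female larvae (-4.50 ± 0.21). Mal-A1 fell (-4.30 ± 0.21), the amylase relative Amyrel (-3.61 ± 0.29), Mal-A6 (-2.97 ± 0.24), Mal-A4 (-2.33 ± 0.10) and Mal-B2 (-1.78 ± 0.14). Among genes with no list, CG11854 (-9.87 ± 0.13), CG31789 (-9.80 ± 0.12) and CG18180 (-9.24 ± 0.18) were also in the 12 largest falls.

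The gut proteases and the glue genes differed in what followed in adults. In females, Jon65Aiv lay at 15.14 and 15.09 in larvae, 4.39 and 4.98 in pupae, and 14.44 and 14.55 in adults. Sgs3 lay at 15.31 and 15.15 in larvae, 4.59 and 4.64 in pupae, and 4.62 and 4.64 in adults. The adult arrays were thus high again for the protease and still low for the glue gene. Mal-A1 was higher in adults than at either earlier stage, with 8.80 and 9.13 in larvae, 4.73 and 4.60 in pupae, and 11.65 and 12.03 in adults.

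**Figure D2:**
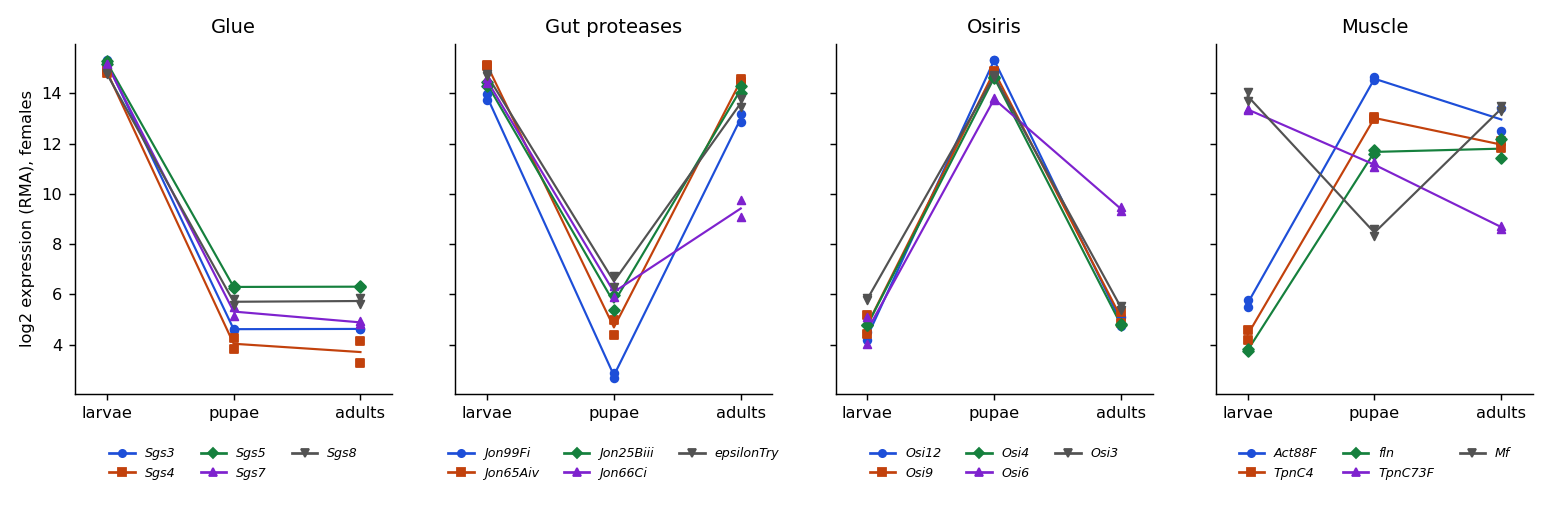
Log2 expression of 20 genes in female larvae, pupae and adults, in 4 panels of 5 genes. Points are single arrays and lines join the group means. The glue genes are high in larvae only, the gut proteases are low in pupae only, the Osiris genes are high in pupae, and of the muscle genes Act88F, TpnC4 and fln are high from pupae on while TpnC73F and Mf are lower in pupae than in larvae.

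The fat body is the organ of storage and of blood protein synthesis, and its most abundant transcripts stood near the top of the scale at both stages. Of 6 measured fat body and storage genes 1 rose and 1 fell. Lsp2, a storage protein that the larva lays down for metamorphosis, had 15.03 on both arrays of female pupae, against 15.20 on both of female larvae (-0.17 ± 0.29, adjusted p = 0.681). Fbp1, the receptor by which the fat body takes storage protein back up, had 14.88 and 14.69 in female pupae, against 15.14 and 15.16 in female larvae (-0.36 ± 0.15, adjusted p = 0.0744). Neither was called, and values this close to the top of the scale may be compressed. Apoltp, a lipid transfer protein of the blood, was higher in pupae by 2.86 ± 0.12, and Lpin, an enzyme of fat synthesis, fell (-1.22 ± 0.10).

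Most transcripts of blood cells called as changed were lower in pupae. Of 21 hemocyte genes 7 fell and 2 rose. Hemocytes engulf debris, clot the blood and, as crystal cells, carry the enzymes of melanisation. PPO1, a prophenoloxidase of crystal cells, had 7.31 and 7.19 in female pupae, against 13.30 and 13.13 in female larvae (-5.96 ± 0.15, adjusted p = 3.08e-10). PPO2 fell (-5.24 ± 0.15), the surface protein gene He (-6.96 ± 0.13), the clotting protein gene Hml (-4.36 ± 0.14) and the phagocytosis receptor gene eater (-3.76 ± 0.13). NimC4, a receptor that recognises dying cells, went the other way, with 11.62 and 12.15 in female pupae, against 7.29 and 7.31 in female larvae (4.58 ± 0.20, adjusted p = 1.27e-08). The other hemocyte gene that rose was Ppn (1.23 ± 0.12). Without the first array of female larvae 4 hemocyte genes were called higher.

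Genes of immune defence were divided. Of 25 antimicrobial and recognition genes 3 rose and 5 fell, and in a fit of the 4 arrays alone 3 fell. The antimicrobial peptides Def (2.89 ± 0.22), AttD (2.75 ± 0.21) and Drs (1.65 ± 0.27) were higher in pupae. The peptidoglycan-cutting enzymes PGRP-SC2 (-4.12 ± 0.22) and PGRP-LB (-3.36 ± 0.12), which act in the gut, were lower, as were the drosomycin relative Drsl2 (-2.37 ± 0.48), PGRP-SB1 (-1.54 ± 0.48) and BomT2 (-1.42 ± 0.43). Drsl2 gave -1.36 without the second array of female larvae and -3.38 without the first, called in both cases. In the fit of 4 arrays PGRP-SB1 and BomT2 were not called. PGRP-SB1 gave -0.56 without the second array of female larvae and -1.24 without the second of female pupae, and BomT2 gave -0.62 without the first of female larvae and -1.12 without the first of female pupae, none of them called. Without the other larval array PGRP-SB1 gave -2.51 and BomT2 -2.21. Of 5 Turandot genes, which encode stress-induced blood proteins, 3 rose and 1 fell. TotB had 11.39 and 10.21 in female pupae, against 5.26 and 5.37 in female larvae (5.48 ± 0.55), while TotC fell (-3.03 ± 0.26). TotF (1.29 ± 0.18) and TotZ (1.21 ± 0.25) rose less, and TotZ was not called without the second array of female pupae (0.79).

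Genes of cuticle-forming epithelia were among the largest rises. The Osiris genes encode insect transmembrane proteins, most of them in a single cluster, that are made by cuticle-secreting epithelia. Of 24 measured Osiris genes 19 rose and none fell, with a median of 4.81. Osi12 had 15.31 and 15.33 in female pupae, against 4.50 and 4.17 in female larvae, and its difference of 10.99 ± 0.15 (adjusted p = 1.01e-11) was the largest rise of all called genes. Osi9 had 14.84 and 14.90 in female pupae, against 4.42 and 5.17 in female larvae (10.07 ± 0.22), and Osi4 had 14.64 and 14.61, against 4.78 on both larval arrays (9.84 ± 0.16). The stages were far apart for each of these genes and the pupal arrays lay near the top of the scale. Osi6 (9.19 ± 0.30), Osi1 (8.91 ± 0.18) and Osi3 (8.86 ± 0.10) followed. In female adults Osi12 was back at 4.75 and 5.10.

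Zona pellucida domain proteins sit at the apical surface of epithelial cells and shape the cuticle above it. Of 10 measured, 6 rose and 2 fell, with a median of 3.49. The gene dyl had 13.70 and 13.78 in female pupae, against 4.51 and 4.66 in female larvae (9.15 ± 0.11, adjusted p = 5.83e-12). Its relatives mey (5.05 ± 0.25), cyr (4.42 ± 0.12), tyn (4.25 ± 0.19) and neo (4.08 ± 0.19) were higher too, as was nompA (2.90 ± 0.11, with -0.47 from its second probe set). The gene zye had 6.52 and 6.27 in female pupae, against 11.55 and 11.16 in female larvae (-4.96 ± 0.19), and pio fell (-1.31 ± 0.09) with 0.01 and -0.56 from its other probe sets.

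Genes of structural cuticle proteins moved in both directions. Of 64 Cpr genes, the large family with a chitin-binding domain, 22 rose and 17 fell, while the median was -0.07. Cpr50Ca had 12.46 and 12.50 in female pupae, against 3.29 and 3.45 in female larvae (9.11 ± 0.13), and Cpr76Bc had 13.98 and 14.09, against 5.45 and 5.47 (8.57 ± 0.22). Cpr66D rose by 7.30 ± 0.15. In the other direction Cpr60D had 4.59 and 4.77 in female pupae, against 11.44 and 11.26 in female larvae (-6.68 ± 0.19), Cpr12A fell (-6.23 ± 0.18) and Cpr67B (-5.93 ± 0.26).

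Of 7 larval cuticle genes 4 fell and none rose. Lcp9 had 5.65 and 5.25 in female pupae, against 13.68 and 13.49 in female larvae (-8.14 ± 0.19). Lcp65Ac (-6.0 ± 0.25), Lcp65Ae (-2.03 ± 0.17) and Lcp65Aa (-1.16 ± 0.11, with -3.37 from its second probe set) fell as well. Of 9 genes named for pupal or adult cuticle 2 rose and 2 fell. Pcp, named as a pupal cuticle protein, was lower in pupae, with 7.58 and 7.49 in female pupae, against 12.92 and 13.44 in female larvae (-5.64 ± 0.17), and Edg91 fell (-1.41 ± 0.13). The gene resilin, which encodes the rubber-like protein of wing hinges and tendons, had 9.78 and 9.83 in female pupae, against 6.37 and 6.13 in female larvae (3.56 ± 0.18). Ccp84Ac rose by 1.02 ± 0.26, a call lost under quantile normalization, after recentring and without the first array of female larvae (0.94). The pupal cuticle genes Edg78E (0.26 ± 0.13) and Edg84A (0.04 ± 0.15) were not called and lay near background on all 4 arrays.

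Of 25 Tweedle genes, another family of cuticle proteins, 3 rose and 2 fell. TwdlT had 13.21 and 13.86 in female pupae, against 6.93 and 7.05 in female larvae (6.54 ± 0.21), TwdlE rose by 5.10 ± 0.25 and TwdlV by 2.70 ± 0.11. TwdlX fell (-2.08 ± 0.15) and Twdlbeta (-1.0 ± 0.22), the second being lost under quantile normalization and without the first array of female larvae (-0.91) or the second of female pupae (-0.83).

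Among 28 genes of chitin synthesis, binding and breakdown 11 rose and 9 fell. The chitinase gene Cht6 had 12.04 and 11.98 in female pupae, against 6.88 and 7.13 in female larvae (5.01 ± 0.12), while its other probe sets gave 3.00 and 0.51. The chitin-binding protein gene obst-B rose by 3.03 ± 0.13. The gene reb, which acts in chitin deposition in the airways, fell (-3.98 ± 0.13), the chitinase gene Cht9 (-3.00 ± 0.23) and Idgf1, a growth factor related to chitinases, (-2.87 ± 0.12). For obst-E the probe sets went in opposite directions, -3.51 ± 0.17 for the one used here and 1.54 ± 0.19 for the other, both called.

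Cuticle is hardened and coloured by products of tyrosine. Of 19 genes of this chemistry 5 rose and 6 fell. Ddc, dopa decarboxylase, had 7.56 and 7.36 in female pupae, against 12.44 and 13.17 in female larvae (-5.34 ± 0.21), and Pu, which makes the cofactor of tyrosine hydroxylase, fell (-2.75 ± 0.18). The gene y, needed for black melanin, had 8.19 and 10.86 in female pupae, against 4.63 and 4.56 in female larvae (4.92 ± 0.61), so that the stages did not overlap but the 2 pupal arrays were far apart. The gene amd rose by 4.05 ± 0.11, yellow-h by 4.01 ± 0.22 and t, which acts in pigment recycling, by 1.69 ± 0.15. The laccase gene stw, whose enzyme links cuticle proteins, rose by 2.52 ± 0.18, with 4.65 and 6.36 from its other probe sets. Relatives of y fell, namely yellow-e2 (-2.65 ± 0.16), yellow-b (-2.35 ± 0.12), yellow-e (-1.39 ± 0.13) and yellow-d2 (-1.32 ± 0.18). For ple, tyrosine hydroxylase, the values were 3.21 and 3.00 in female pupae, against 3.13 and 4.91 in female larvae (-0.92 ± 0.41, adjusted p = 0.0987). For e, which makes the tanning compound of light cuticle, they were 7.54 and 7.50 in female pupae, against 6.14 and 11.54 in female larvae (-1.32 ± 1.25, adjusted p = 0.432). The 2 larval arrays thus lay on either side of the pupal ones for e, whose difference was -4.02 without the first larval array and 1.38 without the second. For ple it was -1.80 and called without the first.

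The arrays of one stage differed at other genes as well. Of 11982 genes, 82 were at least 2-fold apart between the 2 arrays of female pupae and 108 between those of female larvae, against 12 in male pupae and 37 in male larvae. Differences of at least 4-fold were found at 4 genes in female pupae and 21 genes in female larvae.

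Oils on the cuticle surface are made by fatty acid synthases and elongases. Of 15 genes of this pathway 3 rose and 6 fell. Elo68alpha, an elongase, had 4.95 and 4.39 in female pupae, against 7.57 and 7.64 in female larvae (-2.94 ± 0.20). FASN3 (-1.75 ± 0.21), the elongase bond (-1.73 ± 0.11), Elo68beta (-1.53 ± 0.28) and FASN1 (-1.51 ± 0.11) were lower too. Desat1 also fell (-1.07 ± 0.14), a call lost without the first array of female larvae (-0.87) or of female pupae (-0.99). Cyp4g15, a P450 of the family that makes hydrocarbons, rose by 2.58 ± 0.11, as did ACC (1.46 ± 0.11) and FASN2 (1.23 ± 0.14).

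**Figure D3:**
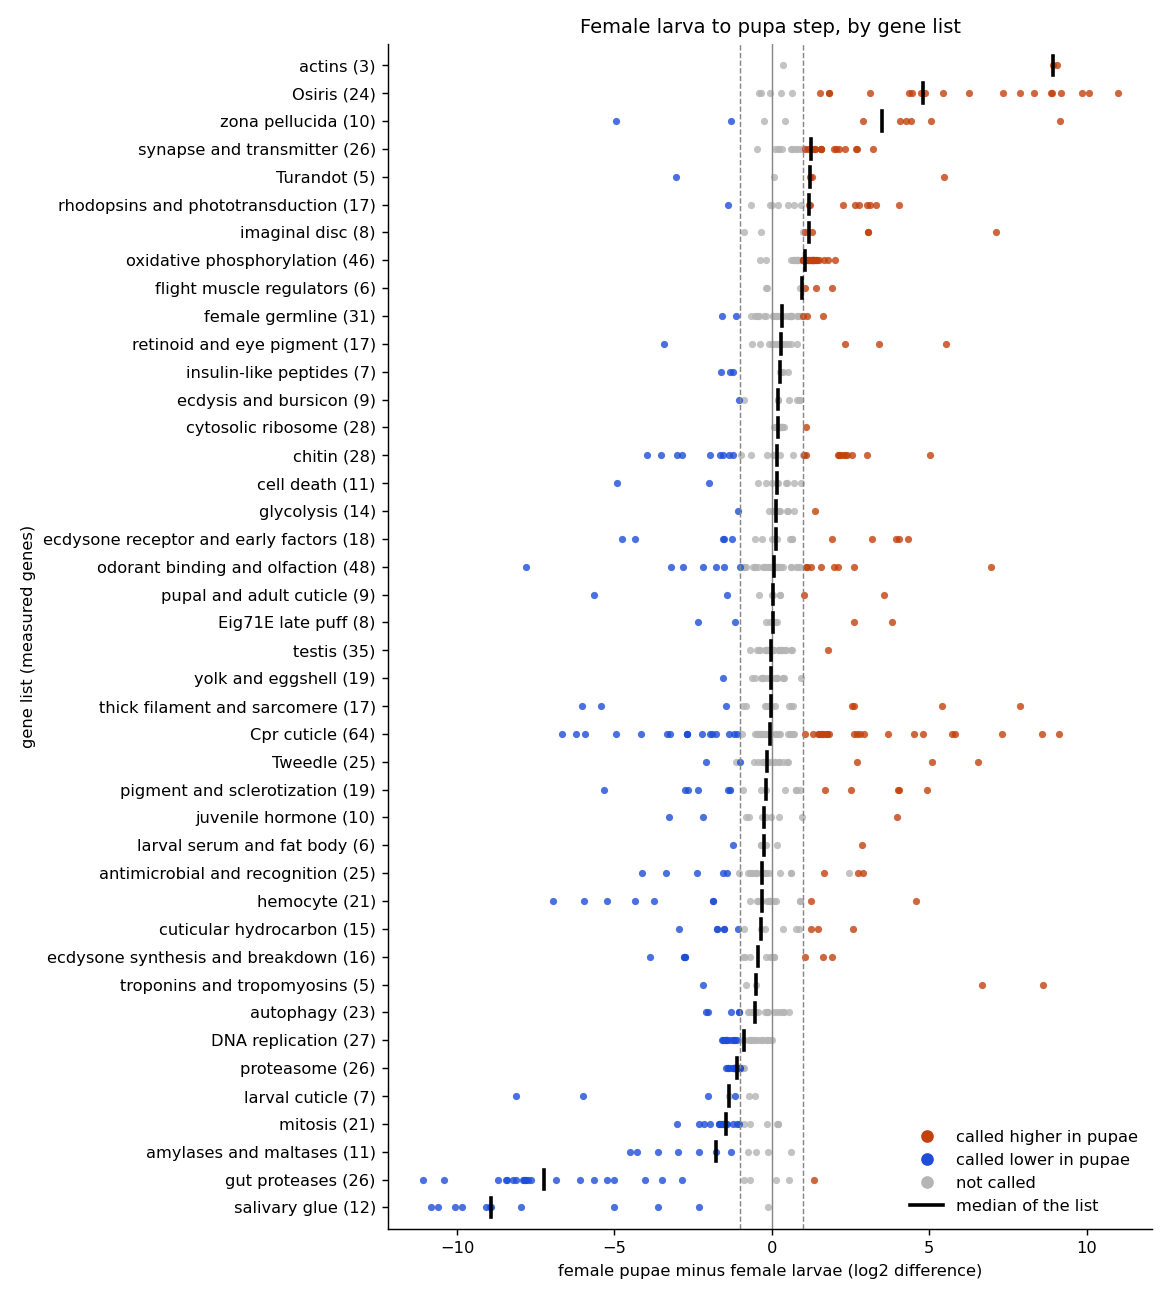
Female pupae minus female larvae (log2 difference) for each measured gene of 42 lists, ordered by the median of the list (black bar). Each point is a gene, coloured by whether it was called higher or lower in pupae, and the dashed lines mark a 2-fold difference. Glue genes and gut proteases lie far to the left, Osiris and zona pellucida genes to the right, and Cpr cuticle genes on both sides.

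The genes that receive and pass on the ecdysone signal changed in both directions, 5 of 18 higher and 5 lower. EcR, the ecdysone receptor, had 8.73 and 8.74 in female pupae, against 10.50 and 9.53 in female larvae (-1.27 ± 0.27, adjusted p = 0.0027), and was not called without the first larval array (-0.79). The gene br, which specifies pupal fate, had 6.56 and 6.78 in female pupae, against 10.94 and 11.10 in female larvae (-4.35 ± 0.18), and its 4 other probe sets were also called lower, between -6.32 and -1.08. Kr-h1, a factor induced by juvenile hormone that holds back metamorphosis, had 3.89 and 4.45 in female pupae, against 8.98 and 8.86 in female larvae (-4.75 ± 0.21). Among nuclear receptors, Hr3 had 8.79 and 9.34 in female pupae, against 4.73 and 5.54 in female larvae (3.93 ± 0.28). Hr4 rose by 4.32 ± 0.47, with 4.35 and 6.19 on the larval arrays, and its other probe sets gave 0.66 and 0.78. Eip93F, which promotes adult fate, had 8.74 and 9.01 in female pupae, against 4.35 and 5.34 in female larvae (4.03 ± 0.30), with 0.99 from its second probe set. Hr38 rose by 3.17 ± 0.18, but its second probe set gave -0.02, and Eip78C rose by 1.90 ± 0.54. The Eip78C call was lost in a fit of the 4 arrays alone, with eBayes run with both its trend and robust options, without the first array of female larvae (0.72) and without the second of female pupae (1.74). The ecdysone-induced genes MsrA (-1.54 ± 0.21) and Cth (-1.52 ± 0.14) completed the falls. For ftz-f1, a competence factor of the late prepupa, the difference was -0.52 ± 0.16 and not called, while its second probe set was called at 1.35 ± 0.21.

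Ecdysone is made in steps by enzymes of the prothoracic gland and activated in other tissues. Of 16 genes of its synthesis and breakdown 3 rose and 5 fell. Of the gland's enzymes, nvd (-2.75 ± 0.24), spok (-2.76 ± 0.14) and sro (-2.79 ± 0.14) fell. The gene shd, whose enzyme makes the active hormone, had 6.88 and 6.95 in female pupae, against 10.82 and 10.76 in female larvae (-3.88 ± 0.11), and its second probe set gave -1.85. Eo, which oxidises ecdysone, fell (-2.78 ± 0.14). Ptth, the brain hormone that drives the gland, had 8.49 and 8.23 in female pupae, against 6.51 and 6.36 in female larvae (1.92 ± 0.13), mld, a regulator of synthesis genes, rose by 1.61 ± 0.10 with 0.61, not called, from its second probe set, and Cyp18a1, which inactivates the hormone, rose by 1.06 ± 0.27 but was not called without the first array of female larvae (0.99) or under quantile normalization (0.92).

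Of 10 juvenile hormone genes 1 rose and 2 fell. Jhe, the esterase that breaks the hormone down, had 11.13 and 10.83 in female pupae, against 6.97 and 7.04 in female larvae (3.98 ± 0.13). Its duplicate Jhedup fell (-3.28 ± 0.28), and jhamt, which makes the hormone, fell (-2.18 ± 0.15). Without the first array of female larvae 2 genes of the list were called higher.

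Among insulin-like signals 3 of 7 fell and none rose. Ilp2 had 6.33 and 6.26 in female pupae, against 8.07 and 7.75 in female larvae (-1.62 ± 0.21), Ilp5 fell (-1.34 ± 0.17), and Lgr3, the receptor of the disc-derived peptide Ilp8, (-1.23 ± 0.16). Ilp8 itself was not called (0.35 ± 0.11). Of 9 genes of ecdysis, the shedding of old cuticle, only rk, the receptor of the tanning hormone, was called (-1.03 ± 0.31), and this call was lost without the second array of female larvae (-0.62) and without the first of female pupae (-0.87). Without that pupal array another gene was called higher.

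Genes of imaginal disc eversion rose, 5 of 8, with none lower. ImpL1, an ecdysone-induced gene, had 13.99 and 13.91 in female pupae, against 6.84 and 6.82 in female larvae (7.12 ± 0.12, adjusted p = 2.94e-11). ImpE1 rose by 3.07 ± 0.18, with 2.91, 1.38 and 0.68 from its other probe sets, and ImpE2 by 1.29 ± 0.17. Sb, a membrane protease needed for leg and wing elongation, had 10.08 and 9.90 in female pupae, against 6.89 and 6.97 in female larvae (3.06 ± 0.17), and Timp, an inhibitor of matrix proteases, rose by 1.05 ± 0.10, though not under quantile normalization (0.93) or without the second array of female larvae (0.94). Without the first array of female larvae 1 gene of this list was called lower.

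Muscle genes were called in both directions. The 3 flight muscle markers Act88F, fln and TpnC4 lay between 11.59 and 14.63 in female pupae, against 3.74 to 5.79 in female larvae. Act88F, the actin of the indirect flight muscle, had 14.63 and 14.53 in female pupae, against 5.79 and 5.51 in female larvae (8.93 ± 0.24, adjusted p = 3.46e-10). Act79B, an actin of leg and thoracic muscle, had 14.03 and 14.06, against 4.77 and 5.19 (9.07 ± 0.14). Act87E, an actin of larval muscle, had 12.65 and 13.04 in female pupae, against 12.68 and 12.30 in female larvae, where the arrays overlapped (0.35 ± 0.16, adjusted p = 0.0903).

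Troponin C is the calcium sensor of muscle. TpnC4, which flight muscle uses, had 13.05 and 12.98 in female pupae, against 4.20 and 4.59 in female larvae (8.62 ± 0.17), and TpnC41C rose by 6.68 ± 0.14. TpnC73F had 11.06 and 11.26 in female pupae, against 13.39 and 13.33 in female larvae (-2.19 ± 0.10), and its second probe set gave -0.61. Of 17 thick filament and sarcomere genes 4 rose and 3 fell. Flightin, from fln, binds the thick filaments of flight muscle, and its gene had 11.59 and 11.76 in female pupae, against 3.82 and 3.74 in female larvae (7.89 ± 0.23). Mlc2, a myosin light chain, rose by 5.41 ± 0.22, Obsc by 2.62 ± 0.13 with -0.58 from a second probe set, and Zasp67 by 2.55 ± 0.20. Zasp66, a Z-disc protein, had 7.75 and 8.04 in female pupae, against 13.94 and 13.93 in female larvae (-6.04 ± 0.16, with -6.26 and -2.51 from its other probe sets), and Mf, a thick filament protein, had 8.31 and 8.61, against 14.07 and 13.70 (-5.43 ± 0.15). Mlp84B also fell (-1.47 ± 0.15). In female adults Zasp66 lay at 11.82 and 12.13 and Mf at 13.29 and 13.49.

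Of 6 regulators of flight muscle formation 3 rose, namely vg (1.92 ± 0.11), salm, which selects the fibrillar muscle type (1.39 ± 0.14), and kon (1.04 ± 0.11), which guides myotubes to their tendons. The call of kon was lost under quantile normalization (0.90), after recentring (0.99) and without the second array of female pupae (0.97).

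The compound eye was measured through its phototransduction genes, of which 9 of 17 rose and 1 fell, with a median of 1.18. The gene chp, needed to build the light-sensing membrane, had 10.60 and 10.25 in female pupae, against 6.25 and 6.55 in female larvae (4.03 ± 0.16). The light-activated channel gene trp had 8.52 and 8.06, against 5.17 and 5.36 (3.03 ± 0.18), and the arrestin gene Arr2 had 9.10 and 8.67, against 5.78 and 5.72 (3.13 ± 0.18). The kinase gene inaC (3.30 ± 0.17), the scaffold gene inaD (2.76 ± 0.13) and the blue-light receptor gene cry (2.63 ± 0.10) were also higher. Arr1, the other visual arrestin, was lower, with 5.06 and 5.29 in female pupae, against 6.65 and 6.45 in female larvae (-1.38 ± 0.14), and stood at 11.01 and 11.22 in female adults.

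Of 17 retinoid and eye pigment genes 3 rose and 1 fell. Pdh, a retinol dehydrogenase of eye pigment cells, had 10.65 and 10.50 in female pupae, against 5.03 and 5.05 in female larvae (5.54 ± 0.13). The carotenoid uptake receptor gene ninaD rose by 3.40 ± 0.30 and st, a pigment precursor transporter, by 2.33 ± 0.16. The retinoid-binding protein gene pinta fell (-3.43 ± 0.13).

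Transcripts of nerve cells rose, 15 of 26 synapse and transmitter genes, with none lower and a median of 1.23. The calcium channel gene cac had 8.95 and 8.93 in female pupae, against 5.61 and 5.87 in female larvae (3.20 ± 0.16), although its second probe set gave -0.05. The sodium pump subunit gene nrv3 had 12.65 and 12.54, against 9.96 and 9.85 (2.69 ± 0.11). The GABA receptor gene Rdl (2.68 ± 0.21), the acetylcholine receptor gene nAChRalpha5 (2.33 ± 0.17), the RNA-binding protein gene fne (2.12 ± 0.14) and the vesicle fusion gene Snap25 (2.04 ± 0.12) were higher as well.

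Odorant-binding proteins and related genes of smell were called in both directions, 8 of 48 higher and 7 lower, shares near those of all genes. Obp73a had 12.79 and 12.71 in female pupae, against 5.81 and 5.74 in female larvae (6.97 ± 0.27). Obp56d had 6.16 and 6.76, against 14.27 on both larval arrays (-7.81 ± 0.17). Obp56a rose by 2.60 ± 0.19, while Obp49a (-3.19 ± 0.11), Obp56h (-2.82 ± 0.16) and Obp56b (-2.20 ± 0.15) fell.

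Genes of cell division were lower in pupae. Of 21 mitosis genes 15 fell and none rose, with a median of -1.46. The gene pim, which encodes securin, had 4.89 and 4.84 in female pupae, against 7.95 and 7.78 in female larvae (-3.00 ± 0.11). Subunits of the chromosomal passenger complex, borr (-2.15 ± 0.11) and Incenp (-1.95 ± 0.17), and the cyclins CycB (-1.69 ± 0.13) and CycB3 (-1.68 ± 0.12) fell with it. The anaphase activator gene fzy fell (-2.33 ± 0.10), but its other probe sets gave 0.46 and -0.02.

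Of 27 DNA replication genes 11 fell and none rose by the call rule, and 22 were lower by the adjusted p alone, with a median of -0.87. The replication clamp gene PCNA had 8.77 and 8.86 in female pupae, against 10.18 and 10.34 in female larvae (-1.45 ± 0.11). The helicase subunits Mcm2 (-1.59 ± 0.14) and Mcm5 (-1.54 ± 0.13), the nucleotide-making enzyme RnrL (-1.52 ± 0.10), Sld5 (-1.46 ± 0.23) and Mcm10 (-1.41 ± 0.12) fell too. In female adults each of these 6 genes and of the 6 mitosis genes above was higher than on any larval array of females. These genes were chosen as the largest called falls of their lists. The share of all genes that were higher in female adults in this way was not computed.

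Subunits of the proteasome, which degrades tagged proteins, fell as a body. Of 26 measured, 21 were called lower and all 26 were lower by the adjusted p alone, with differences between -1.45 and -0.89 and a median of -1.11. Rpn11, the subunit that removes the ubiquitin tag, had 10.89 and 10.95 in female pupae, against 12.31 and 12.44 in female larvae (-1.45 ± 0.10). Prosalpha3 (-1.40 ± 0.09), Rpn3 (-1.39 ± 0.10), Rpt5 (-1.33 ± 0.09), Rpn5 (-1.24 ± 0.10) and Rpn7 (-1.21 ± 0.10) were close to it. The members lie near the 2-fold minimum, and without the second array of female larvae 12 were called.

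The respiratory chain moved the other way. Of 46 oxidative phosphorylation genes 29 rose and none fell, and 44 were higher by the adjusted p alone, with a median of 1.06. Cyt-c1 of complex III had 13.15 and 13.17 in female pupae, against 11.19 and 11.13 in female larvae (2.00 ± 0.09, adjusted p = 1.34e-08). ATPsynC, the ring subunit of ATP synthase, had 14.03 on both pupal arrays, against 12.34 and 12.17 (1.78 ± 0.10). The complex I subunits ND-75 (1.67 ± 0.11), ND-42 (1.51 ± 0.09) and ND-B17 (1.42 ± 0.09) rose too, and RFeSP of complex III rose by 1.40 ± 0.11 with 0.13 from its second probe set. Cytosolic ribosomal proteins, of which 28 were measured, had a median of 0.21 and 1 call. That was RpS5b, a ribosomal protein abundant in the ovary (1.08 ± 0.10), which was not called under quantile normalization.

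Of 14 glycolysis genes 1 rose, Pepck1 of glucose synthesis (1.38 ± 0.37), and 1 fell, Pfk (-1.08 ± 0.14). Pepck1 was not called without the second array of female larvae (0.77), nor Pfk without the first (-0.90).

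Most genes of tissue breakdown were not called, and those that were called were lower. Of 23 autophagy genes 5 fell and none rose, and by the adjusted p alone 13 were lower and 4 higher. Atg9, the membrane protein of the forming vesicle, had 8.44 and 8.19 in female pupae, against 10.45 and 10.36 in female larvae (-2.09 ± 0.12). Atg18b (-2.02 ± 0.12), Atg7 (-1.31 ± 0.18), Atg2 (-1.05 ± 0.11) and Atg101 (-1.03 ± 0.09) fell. Without the second array of female larvae only Atg9 and Atg18b were called, with Atg7 at -0.98, Atg2 at -0.94 and Atg101 at -0.99. Atg2 also missed the minimum without the second array of female pupae (-0.97). Of 11 cell death genes the caspases Damm (-4.93 ± 0.16) and Strica (-1.99 ± 0.17) fell and none was called higher, with 1 higher call without the second array of female larvae. By the adjusted p alone 4 cell death genes were higher and 3 lower, and the median of the list was 0.15.

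Genes of the female germline were called about as often as all genes by the call rule, 3 of 31 higher and 2 lower. By the adjusted p alone 14 were higher and 6 lower, against 30.6% and 24.7% of all genes, and the median of the list was 0.33. The translation regulator gene orb had 4.49 and 5.19 in female pupae, against 3.15 and 3.28 in female larvae (1.63 ± 0.21). The transposon-silencing genes piwi (1.11 ± 0.19) and qin (1.00 ± 0.18, with -0.40 from its second probe set) rose. The differentiation factor gene bam fell (-1.57 ± 0.13) and vret (-1.15 ± 0.12). The helicase gene vas lay near background on all 4 arrays (0.15 ± 0.13). The count of rises was 1 without the first array of female larvae, where piwi gave 0.91 and qin 0.71, and 6 without the second. Without the second array of female pupae piwi gave 0.90, and without the first qin gave 0.96.

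Of 19 yolk and eggshell genes only Yp3, which encodes a yolk protein, was called. It had 8.54 and 8.47 in female pupae, against 10.25 and 9.88 in female larvae (-1.56 ± 0.17), and 14.80 and 14.84 in female adults. Another gene of this list was called higher under quantile normalization and without the first array of female pupae.

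The markers of the male germline gave a check of the sex labels. The 7 testis markers lay between 3.11 and 6.66 in female pupae and between 3.30 and 6.50 in female larvae. In males they lay between 3.85 and 14 in pupae and between 4.2 and 12.48 in larvae. The highest male values were thus above all female ones, while the lowest fell within the female ranges. These ranges do not show whether every marker told the sexes apart. The 3 accessory gland markers did not tell the sexes apart at these stages, as they reached at most 5.35 in female pupae, 5.38 in female larvae, 4.98 in male pupae and 5.14 in male larvae. Of 35 testis genes only fest rose in females (1.79 ± 0.21), with 4.89 and 5.38 in female pupae, against 3.25 and 3.44 in female larvae. Another gene joined it without the second array of female larvae. The stages were separated by the 5 glue markers, which lay between 3.83 and 6.35 in female pupae and between 14.75 and 15.31 in female larvae.

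The same step was measured in males on 4 other arrays. In male pupae 2342 genes (19.5%) were higher than in male larvae and 1502 (12.5%) lower. Over probe sets these shares were 14.5% and 9.23%, and without the 2-fold minimum 27.2% and 21.2%. Of the genes that rose in females 66.4% also rose in males, and these 1119 genes are 47.8% of the male rises. Of the genes that fell in females 85.9% also fell in males, and these 1201 are 80% of the male falls. Across all genes the steps correlated at r = 0.88, given as a description, since genes are not independent replicates.

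The difference between the steps, female step minus male step, was tested in the same fit. It was called positive for 368 genes (3.07%) and negative for 1261 (10.5%). Over probe sets these shares were 2.3% and 7.42%, and without the minimum 7.74% and 9.78%. Most of the negative ones, 991 genes, rose in males and were not called in females. The testis list shows this pattern, with 22 of 35 genes higher in male pupae than in male larvae and 21 negative calls of the difference. Among the positive ones 125 rose in females and were not called in males, and 117 rose in both. The steps were called in opposite directions for 21 genes, and the difference was called for each of them.

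**Figure D4:**
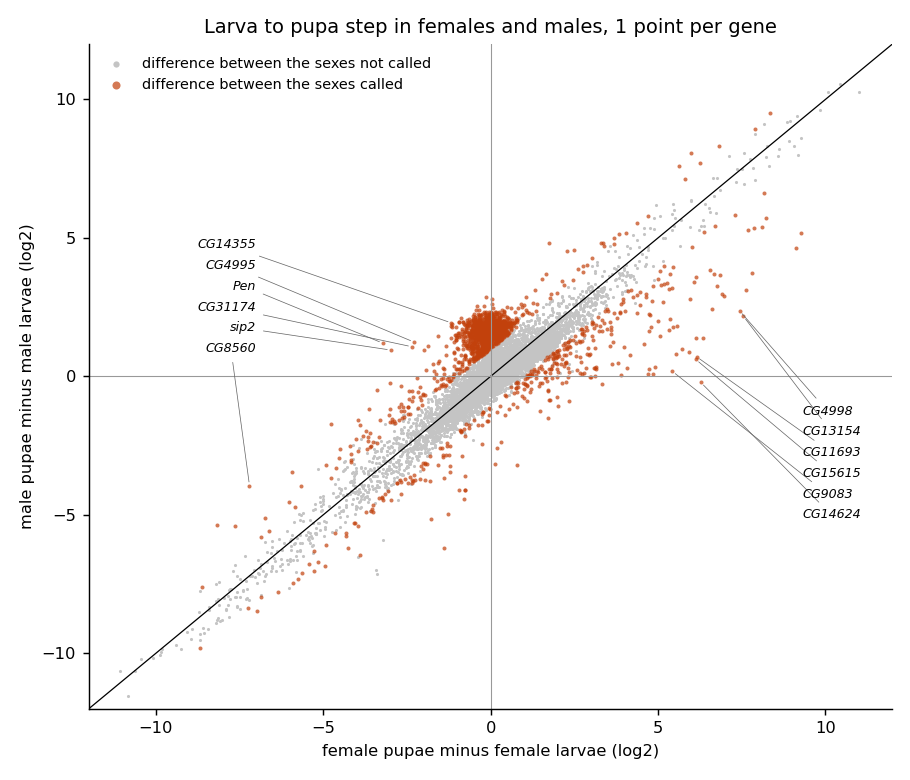
The larva to pupa step in females (horizontal) against that in males (vertical), log2 differences, 1 point per gene. Coloured points are genes whose steps differed between the sexes by the call rule, the diagonal marks equal steps, and the 12 labelled genes are those with the largest called differences. A cloud of coloured points lies above 0 on the male axis and near 0 on the female one, and CG14624, CG15615, CG11693 and CG9083 lie far right with male steps near 0.

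The largest positive difference was at CG14624, with 10.99 and 10.71 in female pupae, against 4.40 and 4.75 in female larvae, and 3.85 and 4.12 in male pupae, against 4.13 and 4.27 in male larvae. The female step exceeded the male one by 6.50 ± 0.22 (adjusted p = 2.16e-07). CG15615 (5.51 ± 0.65), CG11693 (5.43 ± 0.24), CG13154 (5.38 ± 0.37), CG9083 (5.24 ± 0.34) and CG4998 (5.08 ± 0.71) came next. In CG15615 the female pupal arrays lay at 9.86 and 11.77. For these 6 genes every female pupal array was above every male pupal array. The genes were chosen by a difference that includes these arrays, so this separation is a description and no test.

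Several other genes stepped further in females. The yellow gene y had 8.19 and 10.86 in female pupae, against 4.63 and 4.56 in female larvae, and 4.58 and 4.59 in male pupae, against 4.25 and 4.23 in male larvae (difference of steps 4.58 ± 0.86). Pdh, at 10.65 and 10.50 in female pupae, lay at 5.38 and 5.41 in male pupae (4.72 ± 0.19). Cpr50Ca lay at 12.46 and 12.50 in female pupae, against 7.82 and 8.14 in male pupae (4.46 ± 0.19). CG13720 (4.10 ± 0.66), Obp73a (4.07 ± 0.39), TwdlT (2.71 ± 0.30) and TwdlV (2.19 ± 0.15) followed. The median step of the Osiris genes was 4.81 in females and 5.13 in males, and their steps differed by the call rule at 2 genes in the positive and 4 in the negative direction.

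The largest negative difference was at Pen, an importin of nuclear transport, with 7.58 and 7.61 in female pupae, against 10.79 and 10.84 in female larvae, and 13.31 on both arrays of male pupae, against 12.08 and 12.15 in male larvae (-4.42 ± 0.13, adjusted p = 1.23e-07). It fell in females and rose in males. The genes sip2 (-3.92 ± 0.20), CG4995 (-3.53 ± 0.20), CG31174 (-3.42 ± 0.33), CG8560 (-3.26 ± 0.24) and CG14355 (-3.10 ± 0.22) had the next largest negative differences. Among cell division genes the difference of steps was called at pim (-2.76 ± 0.16), CycB3 (-1.88 ± 0.17), fzy (-1.59 ± 0.14) and Incenp (-1.26 ± 0.24), all of which fell in females and were not called in males. The pupal cuticle gene Edg84A, near background in females, had 7.43 and 7.34 in male pupae, against 4.99 and 4.59 in male larvae (difference of steps -2.56 ± 0.22). Yp3 also differed, at -2.06 ± 0.24.

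By chromosome arm, rises made up between 12.5% of genes on 2L and 15.3% on 3R of the large autosomes, and 14.7% on the X. Falls made up between 11.8% on 2L and 13.1% on 3L, and 8.99% on the X. On the small chromosome 4, of 65 genes 15 rose and none fell. These shares were not tested.

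Called genes also lay side by side. Along the order of measured genes there were 13 runs of at least 6 neighbours called in 1 direction, with 97 genes in all. These runs and the genes in them were singled out after their values were seen. The longest, on 3R, held 11 genes from Osi1 to Osi9, with a median of 7.89 and 1 gene outside the family, the neuropeptide receptor gene NPFR (1.72 ± 0.28). Runs of lower genes included 6 genes from yip7 to Jon65Ai on 3L (median -8.17), 6 trypsin genes from zetaTry to betaTry on 2R (-5.93), 10 genes from CG5084 to CG10912 on 2R (-5.87) and 9 genes from Ssk to CG17147 on 3L (-6.61). Ssk was not called without the second array of female larvae (-0.90) or the first of female pupae (-0.76). A run on 2L from NimB5 to rk (-2.06) held the hemocyte genes He, NimC1 and NimC2. On the X, 7 genes from CG14627 to CG11382 rose in females with a median of 6.28. In males 4 of these 7 rose, and the male steps had a median of 2.30 and lay between -0.22 and 5.34. The difference between the sexes was called for all 7.

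**Figure D5:**
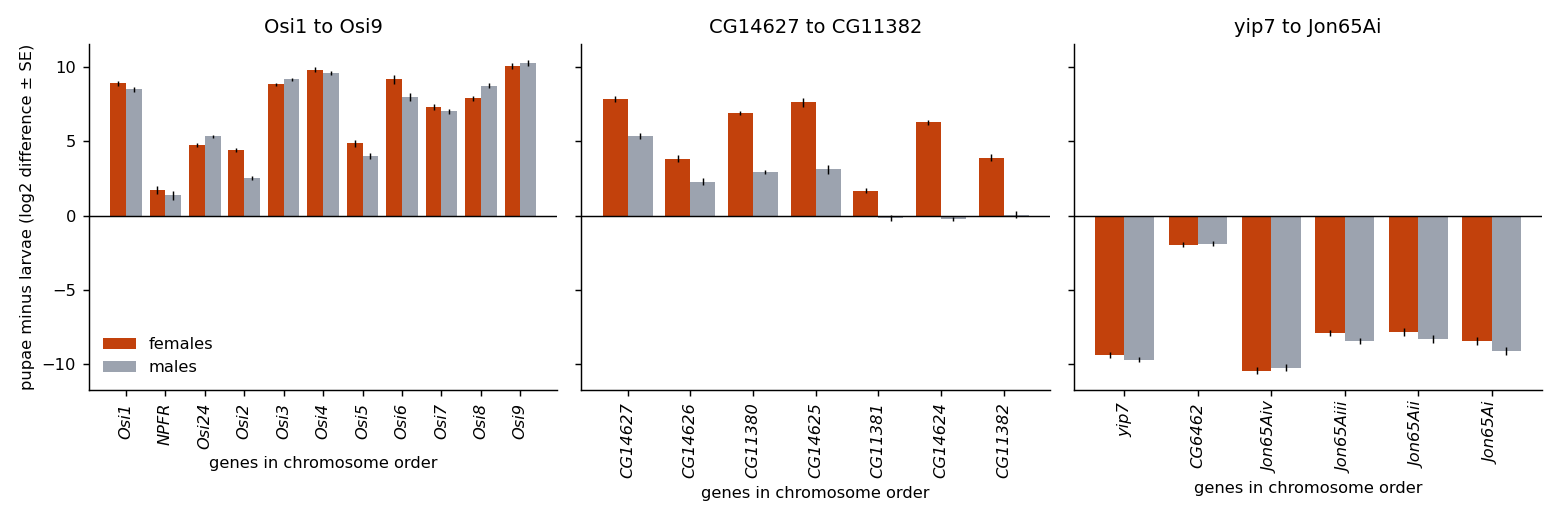
Pupae minus larvae (log2 difference, bars, with SE) in females and males for 3 runs of neighbouring genes, in chromosome order. Most bars of the Osiris run and of the protease run are of similar height in females and males, while the run from CG14627 to CG11382 has taller bars in females at each gene.

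Nearest to the 2-fold minimum, COX5A was called higher (1.0003) and qkr58E-2 was just not (0.9993), while CG18549 was called lower (-1.0004) and stac was not (-0.9996). These 4 calls turned with small changes of the processing or with single arrays. The second probe set of stac was called lower, at -1.11 ± 0.10.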

How the data were processed

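Total RNA of 12 pools of 10 whole flies was labelled with biotin and hybridised to 1-colour arrays, per the labels' protocols. The log2 values used here were deposited by the authors as 1 table of 18952 probe sets on 12 arrays. They were made with RMA, which corrects background, normalizes arrays and summarises probes, per the submitters' processing notes, with version and settings not given in the sources used here. Scanner files were not used here. The number of arrays limits the precision.

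The 183 control probe sets were left out, which left 18769. The platform annotation gave 1 gene for 13647 of these, several for 402 and none for 4720. RefSeq names of Release 6 held the gene of 13544 probe sets, and that table also gave the arm and order of genes. Of 11982 genes 1094 had over 1 probe set, and 9 of them had probe sets called in opposite directions.

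The means of the 6 groups were fitted to all 12 arrays with limma (version 3.58.1, R version 4.3.3), leaving 6 residual and 4.1 prior degrees of freedom. Contrasts were the female step, the male step and their difference. Calls needed a Benjamini-Hochberg adjusted p under 0.05 over 18769 probe sets and a 2-fold difference. In 20 simulated data sets for the female step, each with 200 of 18769 probe sets changed, 89 to 98 of 100 changes of 1.5 on the log2 scale and 97 to 100 of 100 changes of 2 were called, with 0 to 3 false calls. The simulated noise was normal, with the variance of a probe set averaged over the 6 groups. In the data 2056 probe sets were called higher and 1601 lower, and replicates differed more in the female groups than in the male ones. The simulated false calls therefore do not measure those of the real comparison. Replicate numbers did not pair the arrays: the deviations of same-numbered arrays of female pupae and female larvae correlated at -0.002.

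Of 1017 entries in 42 gene lists 808 were measured, and in 15 lists under 80% were. The members and lists were chosen with earlier results of these data known. The genes named were drawn from the 12 largest rises and 12 largest falls, up to 6 called members of each list, 36 measured genes of a fixed list of 54, the 6 largest differences between the sexes in each direction, and the genes nearest the 2-fold minimum. Alternatives were quantile normalization, centring on array medians, recentring (subtracting, on each array, its median departure from the means of the probe sets), bright probe sets only (a group mean over 6), a replicate block, a fit of the groups compared, 1 probe set per gene, eBayes with both its trend and robust options, no fold minimum, and each array left out.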

Additional observations from a re-analysis of the deposited data

Results flagged for a closer look

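Of the 257 genes named, 66 had a larva to pupa step that differed between the sexes by limma's test of the difference. The call needed an adjusted p under 0.05 and a size of at least 1 on the log2 scale. Of all 11982 genes, the difference was called positive for 3.07% and negative for 10.5%. The genes named include those picked for the largest differences between the sexes in each direction. The count of 66 was thus partly fixed by that choice and is a description only. Values are the female step minus the male step. Groups of 2 arrays were too small for a check of single outlying samples. The labels do not give the age of the pupae of either sex, so sex and age of the pupae cannot be told apart.

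Among genes that rose in females and were not called in males, the values were CG14624 (6.50), CG15615 (5.51), CG11693 (5.43), CG9083 (5.24), Pdh (4.72), y (4.58), CG11382 (3.84), TwdlV (2.19), Drs (1.67), orb (1.48), qin (1.45), Ptth (1.22), piwi (1.10) and RpS5b (1.04). The genes that rose in both sexes, and further in females, were CG13154 (5.38), CG4998 (5.08), Cpr50Ca (4.46), CG13720 (4.10), Obp73a (4.07), TwdlT (2.71), CG14627 (2.54), TwdlE (1.82), trp (1.59), Cht6 (1.51), Cpr66D (1.47), Sb (1.13), cac (1.07), obst-B (1.07) and stw (1.05). For stw this rests on the probe set used here. Its other probe sets rose further in males, with differences of -0.85 and -0.76 that were too small to be called. The second probe set of cac gave 0.07.

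Genes that fell in both sexes, and less far in females, were yellow-e (2.26), zye (1.86), yellow-d2 (1.53), Eig71Eg (1.50), Pcp (1.45), yellow-b (1.41), Mf (1.34), TwdlX (1.14) and sro (1.05). Those that rose in both, and less far in females, were Cyp18a1 (-1.80), lambdaTry (-1.78), Obp56a (-1.27), Def (-1.12) and AttD (-1.0). Edg84A (-2.56) rose in males and was not called in females.

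Pen (-4.42), CG4995 (-3.53), CG31174 (-3.42) and CG14355 (-3.10) fell in females and rose in males. Falls in females that were not called in males were at sip2 (-3.92), pim (-2.76), bond (-2.19), Yp3 (-2.06), CycB3 (-1.88), Arr1 (-1.64), fzy (-1.59), Pfk (-1.47), Lcp65Ae (-1.34), Incenp (-1.26), pio (-1.23) and Sld5 (-1.12). Falls in both sexes that went further in females were at CG8560 (-3.26), Damm (-1.71), TotC (-1.64), Elo68alpha (-1.38), Cht9 (-1.35) and nvd (-1.18).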

How the results depend on the processing

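Without the fold minimum, 4831 probe sets were called higher and 3684 lower in female pupae, against 2056 and 1601 with it, since the rule then counts small differences. The same change gave 5114 higher and 3982 lower in male pupae, against 2713 and 1733, and 1452 positive differences between the sexes, against 432. Under the other alternatives the counts of the female step and of the difference between the sexes were within 1.5 times these values. With 1 array left out, the rises in females were 2042 to 2108 and the falls 1571 to 1641, the positive differences between the sexes 412 to 547 and the negative ones 1279 to 1407. A replicate block gave 2056 and 1600 for the female step and 432 and 1384 for the difference, and it changed no call of a named gene. As the replicate numbers share nothing but the number, this bears on no pairing. Recentring moved the median difference of the female step over all probe sets, 0.033, to -0.017. Of 244 named genes called in females, 219 were called in the same direction under all alternatives that kept their probe set. Directions turned at genes that were not called: Lsp2 gave 0.02 under quantile normalization, Edg84A -0.01 after recentring and between -0.13 and 0.21 without 1 array, vas between -0.03 and 0.32 without 1 array, and e between -4.02 and 1.38 without 1 array. The cause was not tested.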

Other observations

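The genes below were picked after their values were seen, as those furthest apart between the 2 arrays of one stage. In female larvae CG7924 had 5.04 and 12.34, CG14664 had 6.69 and 12.87, CG9822 had 5.83 and 11.22, and CG7906 had 8.18 and 13.28, each lower on the first array. CG5697 had 4.85 and 8.93 there, and Drsl5, a drosomycin relative, had 8.02 and 12.69. In female pupae CG42449 had 6.76 and 9.55, Vajk1 had 8.21 and 10.30, CG12003 had 7.51 and 9.58, and the antimicrobial peptide gene Mtk had 10.05 and 8.19. The labels give no age within the stage for these pools, and whether age within a stage moves with these values was not tested.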
